A study of Mus musculus with 12 samples.

Results

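Lef1 and Tcf7l2 encode DNA-binding proteins of the TCF/LEF family, and both were followed here through every probe set of an exon array that carries their symbol. There were 13 probe sets for Lef1 and 14 for Tcf7l2, which is 27 of the 114330 probe sets in the deposited table. Probe sets were assigned to these genes by the gene symbol in the array annotation alone. The genes themselves were chosen with earlier results of these data known. The Lef1 probe sets were then separated by their own genotype difference into raised probe sets, higher by at least 1 on the log2 scale in K14ΔNLef1 arrays of both cell populations, and the others.

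TCF/LEF proteins are the nuclear end of canonical Wnt signalling. Without a signal they sit on their target genes with Groucho/TLE co-repressors, and when β-catenin accumulates it binds their amino terminus and the target genes are activated. In skin, Lef1 is known for its part in hair follicle formation and in the hair-producing matrix, and Tcf7l2 (also called Tcf4) is one of the family members of the resting bulge, the stem cell niche of the follicle. A Lef1 that lacks the amino terminus still binds DNA but not β-catenin.

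Female mice aged 9.5 weeks gave the back-skin keratinocytes, which were sorted by flow cytometry into 2 populations. K14ΔNLef1 CD34+ITGA6+ cells, WT CD34+ITGA6+ cells, K14ΔNLef1 ITGA6+ cells and WT ITGA6+ cells were each hybridised to 3 arrays, 12 in all. CD34 marks bulge stem cells and ITGA6 (integrin α6) marks cells on the basement membrane, and the study's methods give the ITGA6+ cells as CD34 negative. In K14ΔNLef1 mice a keratin 14 promoter, active in basal keratinocytes, drives the truncated Lef1 in addition to the mouse's own Lef1 gene, while WT mice carry no transgene. The labels call arrays of a group biological replicates and do not say whether one array stands for one mouse or for a pool. Fewer cells of a type and less RNA per cell cannot be told apart in sorted bulk samples.

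Values are log2 intensities, and the level at the middle of each array, a median over its probe sets of 7.35 to 7.63, serves as a guide to background, which was not measured. Pearson's r over probe sets was 0.909 to 0.936 for arrays within one group. Cd34 went with the sort, at 11.40 ± 0.27 in CD34+ITGA6+ and 5.33 ± 0.23 in ITGA6+ cells of K14ΔNLef1 mice, and at 11.81 ± 0.17 and 5.37 ± 0.12 in those of WT mice (mean ± SD, n = 3 arrays each). A description field of the labels names the populations the other way round, and the titles, which Cd34 bears out, were followed. Of 6 bulge markers, 6 lay above the array medians in both CD34+ITGA6+ groups, 3 in K14ΔNLef1 ITGA6+ and 2 in WT ITGA6+ cells, and the 5 basal keratinocyte markers lay above them in every group.

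RefSeq places 4 transcript starts for Lef1 and 2 for Tcf7l2 on mouse assembly GRCm38.p6, all on the plus strand. The first start of each gene and the one farthest inside it are printed, because a start inside a TCF/LEF gene can give a shorter protein and because these genes can be bound by their own family. In human LEF1, a promoter inside the gene is known to give a form without the β-catenin-binding part, and whether the inner mouse start is its equivalent was not analysed here. Each window holds 250 bases before and 50 after the start. Capitals mark a core of the TCF/LEF site, searched on either strand as CTTTG followed by 2 letters that are each A or T.
Lef1 first start, chr3:131110047-131110346: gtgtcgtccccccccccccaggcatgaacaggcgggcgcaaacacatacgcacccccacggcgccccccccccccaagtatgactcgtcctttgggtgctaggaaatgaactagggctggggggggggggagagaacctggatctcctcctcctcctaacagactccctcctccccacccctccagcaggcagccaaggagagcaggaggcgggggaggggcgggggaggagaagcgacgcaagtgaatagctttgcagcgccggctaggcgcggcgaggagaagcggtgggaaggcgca
Lef1 inner start, chr3:131156044-131156343: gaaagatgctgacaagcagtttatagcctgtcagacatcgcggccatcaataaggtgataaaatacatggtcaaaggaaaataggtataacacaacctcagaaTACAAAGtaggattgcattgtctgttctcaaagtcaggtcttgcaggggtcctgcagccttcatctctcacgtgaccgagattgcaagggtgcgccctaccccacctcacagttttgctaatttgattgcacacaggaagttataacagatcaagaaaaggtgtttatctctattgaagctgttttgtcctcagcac
Tcf7l2 first start, chr19:55741560-55741859: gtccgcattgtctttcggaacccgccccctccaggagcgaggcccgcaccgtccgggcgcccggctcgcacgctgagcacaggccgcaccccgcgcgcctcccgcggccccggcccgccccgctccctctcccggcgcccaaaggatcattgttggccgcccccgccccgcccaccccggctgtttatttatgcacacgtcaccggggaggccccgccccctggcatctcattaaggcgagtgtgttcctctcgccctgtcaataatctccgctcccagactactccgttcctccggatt
Tcf7l2 inner start, chr19:55895071-55895370: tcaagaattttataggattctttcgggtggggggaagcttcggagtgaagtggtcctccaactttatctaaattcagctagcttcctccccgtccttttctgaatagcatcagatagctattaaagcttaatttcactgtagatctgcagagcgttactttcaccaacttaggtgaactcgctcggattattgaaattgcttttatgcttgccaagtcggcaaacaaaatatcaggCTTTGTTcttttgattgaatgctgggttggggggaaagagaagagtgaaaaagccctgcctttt
The inner starts lie 45997 bases downstream of the first in Lef1 and 153511 bases in Tcf7l2. Each inner window held 1 match and each first window held 0, as did the 2 other Lef1 windows. Of 32851 such windows in the RefSeq set, 16.9% held at least 1 match. A match describes letters only, and the transgene does not use these promoters.

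Lef1 was far higher in K14ΔNLef1 cells. Of its 13 probe sets, 10 were raised, and for each of the 10 all 3 K14ΔNLef1 arrays lay above all 3 WT arrays in both populations, where 4.9% of all probe sets tested were apart in this direction in the CD34+ITGA6+ population and 7.15% in the ITGA6+ population. The mean difference ran from 4.47 to 6.92 in CD34+ITGA6+ cells (median 6.21) and from 4.65 to 8.17 in ITGA6+ cells (median 7.21). These values chose the raised probe sets, so they are a description and no test is given. Over all probe sets with 1 gene symbol that were tested, 0.897% were called for genotype in the CD34+ITGA6+ population and 2.45% in the ITGA6+ population.

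Probe set 4585358 was the raised one with the smallest difference. It measured 13.74, 13.63 and 13.73 in K14ΔNLef1 CD34+ITGA6+ arrays, against 8.97, 9.60 and 9.14 in WT CD34+ITGA6+ arrays, a difference of 4.47 ± 0.21 (limma standard error). In ITGA6+ cells it measured 13.78, 13.60 and 13.53 in K14ΔNLef1 and 8.88, 8.93 and 9.16 in WT arrays, a difference of 4.65 ± 0.21. Its WT values lay above the array medians, and its K14ΔNLef1 values were exceeded by almost no other probe set, at percentiles of 99.9956 to 99.9983 of their arrays. Probe set 4366349 was the only other raised one with WT means above the array medians, and its K14ΔNLef1 values stood at percentiles of 99.923 to 99.9571. Saturation of such bright probe sets was not tested, and the differences are given without a fold.

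The other 8 raised probe sets had WT means below the array medians, and their differences are set against values near background, without a fold. Probe set 5403785 measured 13.38, 13.39 and 13.30 in K14ΔNLef1 CD34+ITGA6+ arrays, against 6.01, 7.66 and 5.66 in WT CD34+ITGA6+ arrays, the largest difference in that population (6.92 ± 0.40). Probe set 4890014 had the largest difference in ITGA6+ cells (8.17 ± 0.34), at 12.74, 12.65 and 12.68 in K14ΔNLef1 and 4.59, 4.65 and 4.33 in WT arrays. Both were steady in K14ΔNLef1 arrays and variable in WT CD34+ITGA6+ arrays, where replicate 2 was the high one. Probe set 4500947 measured 9.27, 8.80 and 9.73 in K14ΔNLef1 ITGA6+ arrays, against 1.66, 2.40 and 2.16 in WT ITGA6+ arrays.

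**Figure D1:**
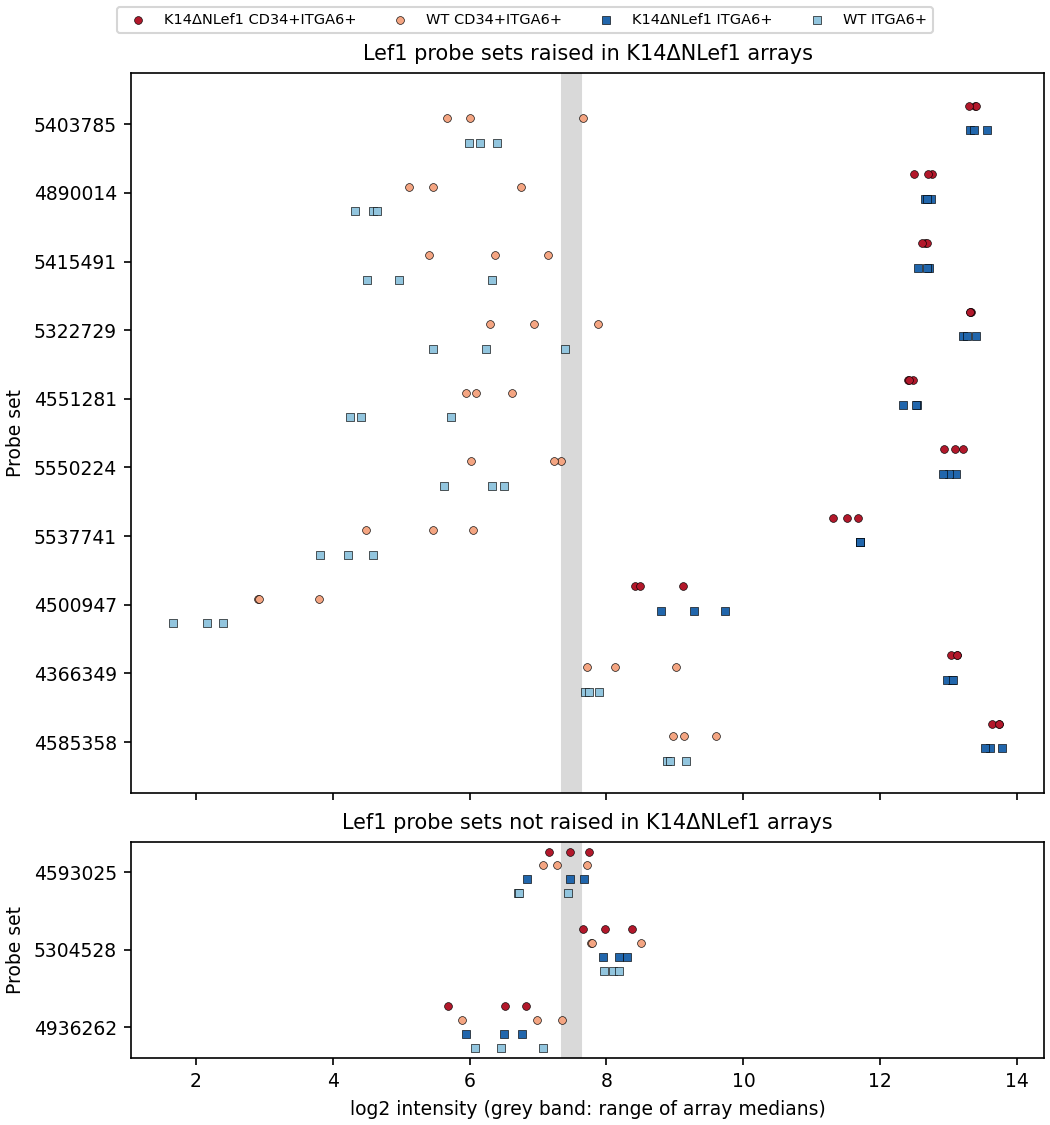
Log2 intensity of each Lef1 probe set (rows) on each of the 12 arrays, with circles for CD34+ITGA6+ and squares for ITGA6+ cells, dark for K14ΔNLef1 and light for WT; the grey band is the range of the array medians, 7.35 to 7.63. The 10 raised probe sets show 2 separate clouds, and in the 3 others the groups lie on top of each other.

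The remaining 3 Lef1 probe sets did not separate the genotypes. Probe set 5304528 measured 7.66, 7.99 and 8.37 in K14ΔNLef1 CD34+ITGA6+ arrays and 7.77, 7.80 and 8.50 in WT CD34+ITGA6+ arrays, and 7.95, 8.30 and 8.18 in K14ΔNLef1 ITGA6+ and 8.09, 8.18 and 7.97 in WT ITGA6+ arrays. Probe set 4593025, the one just outside the limit, differed by 0.10 ± 0.30 in CD34+ITGA6+ and by 0.38 ± 0.30 in ITGA6+ cells, against 4.47 and 4.65 for the one just inside. Probe set 4936262 did not pass the filter on low values and differed by -0.40 and -0.12. Whether these 3 lie in the part of Lef1 that the transgene leaves out was not analysed here, because the files give no exon for a probe set.

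The median over all 13 probe sets was used as the level of the gene. Lef1 measured 12.58 ± 0.09 in K14ΔNLef1 CD34+ITGA6+ cells and 6.51 ± 0.56 in WT CD34+ITGA6+ cells, and 12.65 ± 0.08 in K14ΔNLef1 ITGA6+ cells and 6.21 ± 0.21 in WT ITGA6+ cells (mean ± SD, n = 3). Set against each other, the genotype effects of the populations differed by -0.37 ± 0.34 for the gene (CD34+ITGA6+ minus ITGA6+) and by -1.73 to -0.18 over the raised probe sets, which is again a description without a test.

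**Figure D2:**
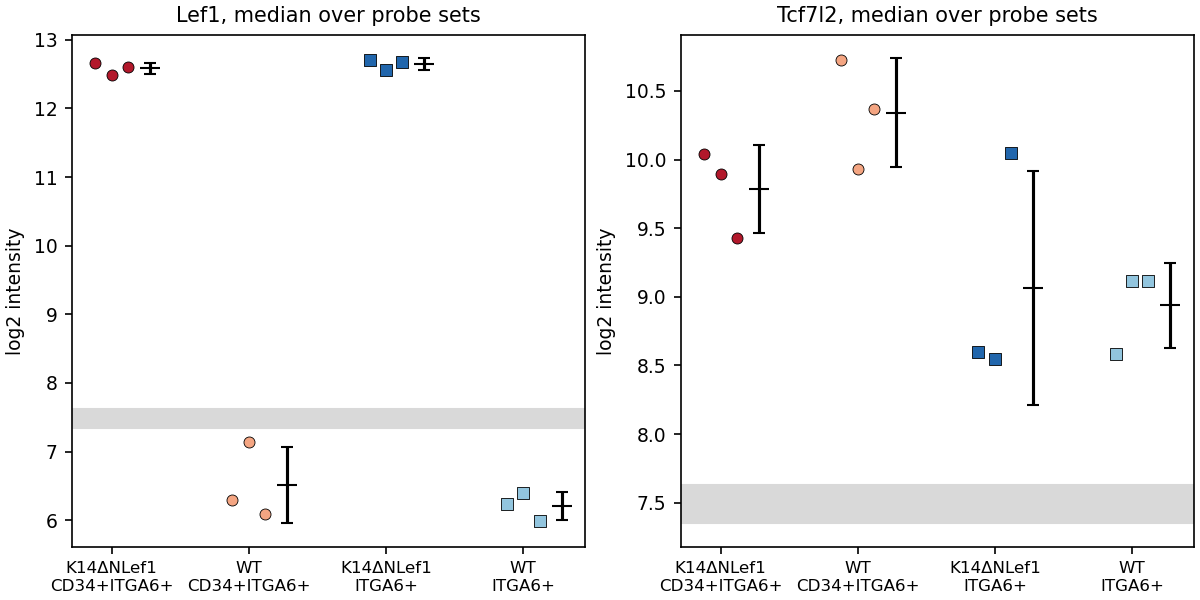
Median log2 intensity over the probe sets of Lef1 (left, 13) and Tcf7l2 (right, 14) on each array by group, with mean ± SD over 3 arrays beside the points and the range of array medians in grey; the vertical axes differ and do not start at 0. Lef1 splits by genotype, and Tcf7l2 is higher in both CD34+ITGA6+ groups apart from 1 K14ΔNLef1 ITGA6+ array at 10.05.

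Lef1 was next compared between the populations within a genotype, a comparison the separation of probe sets did not use. In K14ΔNLef1 mice the gene did not differ by the test (log2 difference -0.07, 95% interval -0.58 to 0.44, limma adjusted p = 0.899). The interval and p use a spread pooled over all groups, WT included. The SD was 0.09 in CD34+ITGA6+ and 0.08 in ITGA6+ cells of K14ΔNLef1 mice. It was 0.56 and 0.21 in those of WT mice, where Lef1 lay below the array medians. With only the arrays compared in the fit, the limma adjusted p was 0.839. The raised probe sets differed by -0.59 to 0.07, with 0 of 10 called and 0 at an unadjusted p under 0.05. Of all probe sets tested, 2.75% were called higher in CD34+ITGA6+ cells and 18.1% had such a p in either direction. Standard errors of the 10, from 0.21 to 0.46, also took in the WT arrays. In addition, the gene median and 8 of the 10 passed the filter through the K14ΔNLef1 arrays compared here. Neither the adjusted p of the gene nor the counts of 0 therefore show that the populations were equal. With median centring 8 of the 10 were above 0 rather than 4. Keratin 14, the gene whose promoter drives the transgene, was at 12.69 ± 0.25 in CD34+ITGA6+ and 13.00 ± 0.02 in ITGA6+ cells of these mice, a difference of -0.32 ± 0.17 (adjusted p = 0.252). Its partner keratin 5 differed by -0.29 ± 0.16 (adjusted p = 0.262).

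In WT mice, 8 of the 10 raised probe sets lay below the array median on at least 5 of the 6 arrays. They entered the fit through their K14ΔNLef1 values, so their WT values are given as a description, with no test. Probe set 4551281 measured 5.94, 6.62 and 6.09 in CD34+ITGA6+ arrays, against 4.26, 5.73 and 4.41 in ITGA6+ arrays. Probe set 4890014 measured 5.11, 6.75 and 5.47 in CD34+ITGA6+ arrays, against 4.59, 4.65 and 4.33 in ITGA6+ arrays. All 12 of these values lay below the array medians. WT CD34+ITGA6+ replicate 2 was the highest of its group in 9 of the 10 raised probe sets.

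The other raised probe sets, 4585358 and 4366349, were above the array medians on every WT array and could be tested. Probe set 4366349 measured 7.72, 9.01 and 8.13 in WT CD34+ITGA6+ arrays, against 7.90, 7.69 and 7.75 in WT ITGA6+ arrays. The groups overlapped, and the difference of 0.51 ± 0.28 was not past the threshold (adjusted p = 0.326). Probe set 4585358, whose WT values are given above, differed by 0.25 ± 0.21 (adjusted p = 0.557), again with overlap.

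The gene median of Lef1 lay below the array medians on all 6 WT arrays and gets no test there. It was 0.30 higher in the CD34+ITGA6+ population of WT mice, -0.015 without WT CD34+ITGA6+ replicate 2 and 0.69 when probe sets were averaged. Probe set 5304528, not raised and above the array medians on every WT array, differed by -0.06 ± 0.25 (limma adjusted p = 0.937). Probe set 4593025, also not raised, was 0.40 higher in WT CD34+ITGA6+ cells. It exceeded the array median on 1 of the 6 WT arrays and also gets no test there. Whether the probe sets of Lef1 moved unequally between the populations of K14ΔNLef1 mice was tested with the usage test of limma. It was not past the threshold (adjusted p = 1), where 3.76% of genes were called. Raised probe sets with WT values near background entered that test through these K14ΔNLef1 arrays, and its spread took in the WT arrays. Its outcome therefore does not show equal movement.

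Lef1 is also expressed in T cells and in the hair matrix, so the markers of these cells were set beside it. None of 7 measured T cell markers had a mean above the array medians in WT CD34+ITGA6+ cells and 1, Thy1, had it in WT ITGA6+ cells. The summed intensity of the 7 ran from 478 to 887 in WT CD34+ITGA6+ arrays, lowest in replicate 2, and from 694 to 796 in WT ITGA6+ arrays. For 6 measured hair matrix markers the sum ran from 758 to 923 in WT CD34+ITGA6+ arrays, again lowest in replicate 2, and from 644 to 822 in WT ITGA6+ arrays. Only Hoxc13 of the 6 had a mean above the array medians in WT CD34+ITGA6+ cells, and none had in WT ITGA6+ cells. Hoxc13 was higher in the CD34+ITGA6+ population by 1.83 in WT mice (limma adjusted p = 4.04e-04). In K14ΔNLef1 mice it was higher by 1.54 (adjusted p = 0.00246). The other tested matrix markers, Krt35 and Dlx3, were not called in either genotype. The bulge markers summed to between 14997 and 17640 in WT CD34+ITGA6+ arrays, also lowest in replicate 2, and between 8237 and 8612 in WT ITGA6+ arrays. Among them, Krt15 did not differ between the WT populations by the test (0.09, limma adjusted p = 0.730). Basal keratinocyte and fibroblast markers were lowest in WT CD34+ITGA6+ replicate 2 as well, and melanocyte, myeloid and endothelial markers in replicate 3. The array median of replicate 2, 7.35, was the lowest of its group. The part of T cells, hair matrix cells and bulge cells in the Lef1 values was not tested.

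Tcf7l2 stood higher in the CD34+ITGA6+ population. In WT mice its gene median was 10.72, 9.93 and 10.37 in CD34+ITGA6+ arrays, against 8.58, 9.12 and 9.12 in ITGA6+ arrays. The groups did not overlap, and the difference was 1.40 ± 0.35 (95% interval 0.64 to 2.16, limma adjusted p = 0.0130), or 2.64-fold. Of all genes tested, 17.2% were called in this comparison. The call was lost without WT CD34+ITGA6+ replicate 1 (1.21, adjusted p = 0.0594) and without WT ITGA6+ replicate 1 (1.22, adjusted p = 0.0534), and over the 25 alternatives tried the difference was 1.06 or more, with adjusted p from 4.80e-04 to 0.0594.

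In K14ΔNLef1 mice the gene median was 10.04, 9.89 and 9.43 in CD34+ITGA6+ arrays, against 8.60, 8.55 and 10.05 in ITGA6+ arrays. Replicate 3 of the ITGA6+ arrays lay as high as the CD34+ITGA6+ arrays, and the difference of 0.72 ± 0.35 was not past the threshold (95% interval -0.04 to 1.48, adjusted p = 0.217, with 12.9% of genes called). Without that array it was 1.21 (adjusted p = 0.0134). When probe sets were averaged it was 0.69 (adjusted p = 0.0241). Median centring or quantile normalization turned no direction of Tcf7l2 in either population comparison.

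All 14 Tcf7l2 probe sets had the higher mean in CD34+ITGA6+ cells in both genotypes, by 0.19 to 1.90 in WT mice (median 1.17) and by 0.10 to 1.19 in K14ΔNLef1 mice (median 0.68). In WT mice 5 of 14 were called, against 3.93% of all probe sets tested that were called higher. There 12 of 14 had an unadjusted p under 0.05 (7.52% of all, in this direction), and in 10 the groups did not overlap (8.97% of all). In K14ΔNLef1 mice 1 of 14 was called (2.75% of all), 7 had an unadjusted p under 0.05 (6.76% of all) and in 6 the groups did not overlap (9.05% of all). With replicate number as a block within each genotype, 3 of 14 were called in WT mice (4459561, 4698378 and 4827952). The same fit called 5876 of all 65221 probe sets tested there, in either direction. Probe sets of one gene are not independent of each other.

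Probe set 4698378 was the one called in both genotypes in the fit without a block. It measured 11.16, 11.53 and 11.23 in CD34+ITGA6+ and 10.59, 10.65 and 10.10 in ITGA6+ arrays of K14ΔNLef1 mice, a difference of 0.86 ± 0.22 (adjusted p = 0.0406). In WT mice it measured 11.66, 11.70 and 11.88 in CD34+ITGA6+ and 10.72, 10.34 and 10.74 in ITGA6+ arrays, a difference of 1.15 ± 0.22 (adjusted p = 0.00591). The populations were apart in both genotypes. In K14ΔNLef1 mice, however, the call was kept in only 3 of 12 fits without 1 array and was lost without any of the 6 arrays compared. With the replicate block within genotype its limma adjusted p was 0.0586 in K14ΔNLef1 and 0.0149 in WT mice.

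Probe set 4459561 measured 11.81, 11.38 and 11.61 in WT CD34+ITGA6+ arrays, against 10.36, 10.48 and 10.72 in WT ITGA6+ arrays, a difference of 1.08 ± 0.21 (adjusted p = 0.00755). Together with 4698378 it kept its WT call whichever single array was left out. Probe set 4827952 had the largest called difference in WT mice (1.73 ± 0.40, adjusted p = 0.0185), with 8.85, 9.25 and 10.18 in CD34+ITGA6+ and 7.06, 7.58 and 8.43 in ITGA6+ arrays. It was lost without WT CD34+ITGA6+ replicate 3 or WT ITGA6+ replicate 1 or 2, the highest adjusted p being 0.0708. The calls of 4411707 (1.42 ± 0.39, adjusted p = 0.0420) and 4522774 (0.85 ± 0.23, adjusted p = 0.0415) were kept in 1 and 2 of 12 such fits (highest adjusted p = 0.139 and 0.136), and with the replicate block within genotype their adjusted p was 0.0671 and 0.0512.

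The smallest differences were those of probe set 5137550, at 0.19 ± 0.26 in WT and 0.10 ± 0.26 in K14ΔNLef1 mice, whose values from 6.95 to 7.84 lay around the array medians. Probe set 5197931 had the largest mean difference in WT mice (1.90 ± 0.59, adjusted p = 0.0731). Its values in K14ΔNLef1 ITGA6+ arrays were 7.92, 9.92 and 10.85, the widest spread of any Tcf7l2 probe set within a group. The usage test was not past the threshold for Tcf7l2 in either population comparison (adjusted p = 1 in K14ΔNLef1 and 0.860 in WT mice, where 5.6% of genes were called).

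**Figure D3:**
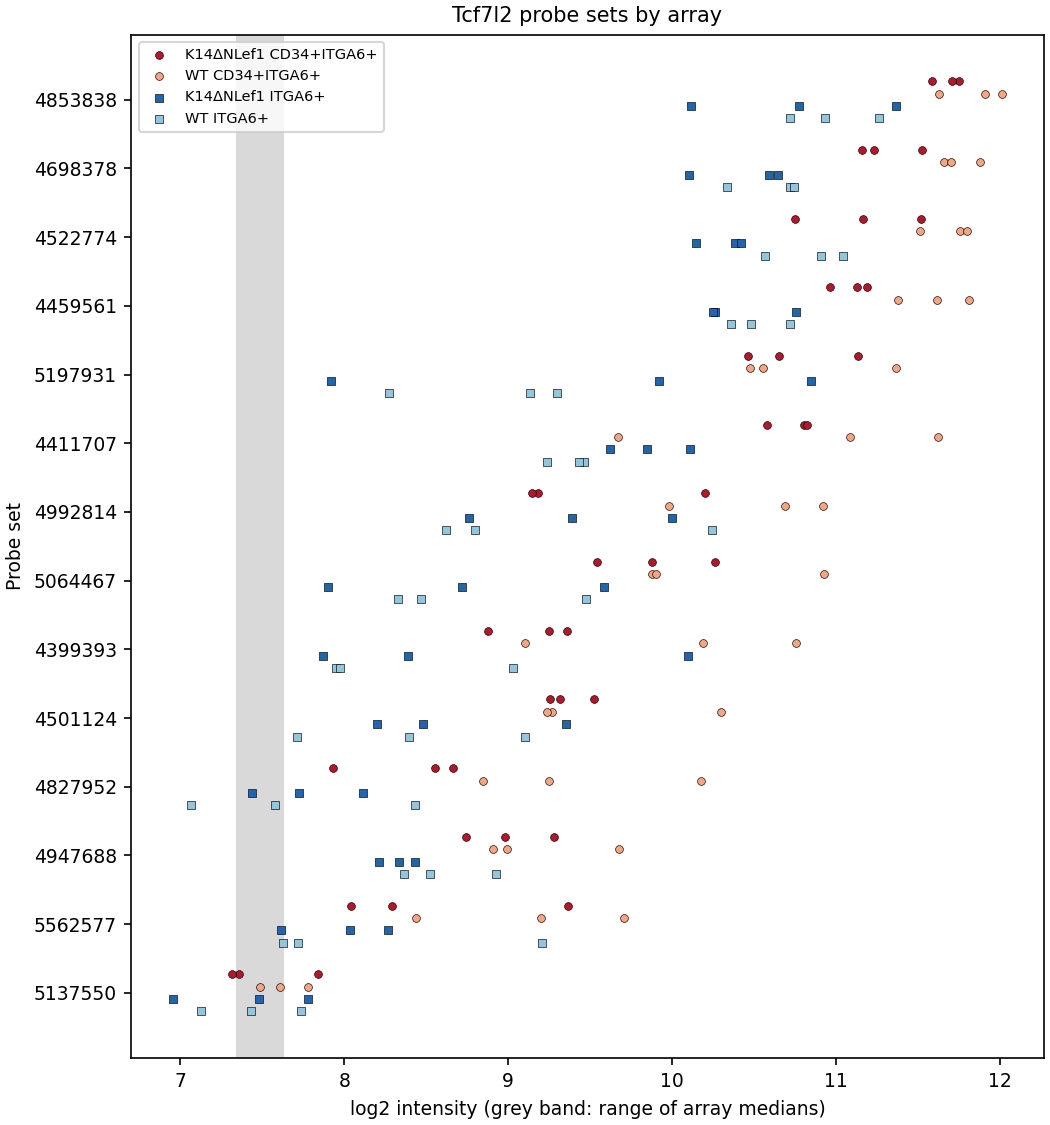
Log2 intensity of each Tcf7l2 probe set (rows) on each of the 12 arrays, with circles for CD34+ITGA6+ and squares for ITGA6+ cells, dark for K14ΔNLef1 and light for WT; the grey band is the range of the array medians. In most rows the circles lie right of the squares, and in 5197931 and 4399393 single K14ΔNLef1 ITGA6+ arrays lie among the circles.

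K14ΔNLef1 ITGA6+ replicate 3 was the highest of its group in 9 of 14 Tcf7l2 probe sets and the lowest in 4. In 4399393 it read 10.10, against 8.39 and 7.87 on the other two. Its bulge markers summed to 7365, the lowest of its group, whose highest was 7848, and CD34+ITGA6+ arrays of the same genotype ran from 13565 to 15774. In this group only Krt15, Sox9 and Lhx2 of these markers had means above the array medians. Krt15 did not differ between the populations of K14ΔNLef1 mice by the test (0.17, limma adjusted p = 0.526). A sum of intensities weighs bright markers most, so it cannot give the share of bulge cells. The part of bulge cells in the Tcf7l2 value of this array was not tested.

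Tcf7l2 was also compared between genotypes. In CD34+ITGA6+ cells its gene median was 10.04, 9.89 and 9.43 in K14ΔNLef1 arrays, against 10.72, 9.93 and 10.37 in WT arrays, and the groups overlapped. The difference of -0.56 ± 0.35 was not past the threshold (95% interval -1.32 to 0.21, adjusted p = 0.707, with 1.91% of genes called). All 14 probe sets had the lower mean in K14ΔNLef1 cells, by -1.04 to -0.05 with a median of -0.39, and with quantile normalization 13 of 14 did. None was called, 3 had an unadjusted p under 0.05 (4459561, 4522774 and 4827952), and in 3 the groups did not overlap. Of all probe sets tested, 4.82% had such a p and a lower mean, and 6.81% were lower without overlap.

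In ITGA6+ cells the gene median was 9.06 ± 0.85 in K14ΔNLef1 and 8.94 ± 0.31 in WT arrays, a difference of 0.13 ± 0.35 (95% interval -0.63 to 0.89, adjusted p = 0.945, with 5.3% of genes called). Its sign turned without K14ΔNLef1 ITGA6+ replicate 3 (-0.37) or WT ITGA6+ replicate 1 (-0.05). The probe sets split into 6 above and 8 below 0, or 8 above and 6 below with median centring or quantile normalization. None was called, and 1, 4522774, had an unadjusted p under 0.05 (-0.52 ± 0.23), as 7.26% of all probe sets tested had with a lower mean.

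The genotype effect on Tcf7l2 differed between the populations by -0.68 ± 0.50 (95% interval -1.76 to 0.39, adjusted p = 0.807), where 1.54% of genes were called. None of its probe sets was called for this difference (lowest unadjusted p 0.0761), where 0.411% of probe sets were called and 7.55% had an unadjusted p under 0.05. Probe set usage was not past the threshold for Tcf7l2 in either genotype comparison or in the difference between them (adjusted p = 1 in each), where 0.806%, 2.13% and 0.529% of genes were called. From high to low, the groups stood at 10.34 in WT CD34+ITGA6+, 9.79 in K14ΔNLef1 CD34+ITGA6+, 9.06 in K14ΔNLef1 ITGA6+ and 8.94 in WT ITGA6+ cells, and no neighbouring pair differed by the test.

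Of the other family members, Tcf7 (the T cell factor TCF1) had 11 probe sets, and Tcf7l1 was not analysed here. Tcf7 was not called in any comparison. In CD34+ITGA6+ cells it averaged 7.99 ± 0.21 in K14ΔNLef1 and 7.52 ± 0.11 in WT arrays (difference 0.47 ± 0.21, adjusted p = 0.440). In ITGA6+ cells it averaged 7.43 ± 0.11 in K14ΔNLef1 and 7.98 ± 0.39 in WT arrays (difference -0.54 ± 0.21, adjusted p = 0.190). The difference between these effects, 1.01 ± 0.29, was not past the threshold (adjusted p = 0.133).

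The proteins that work with Lef1 and Tcf7l2 were taken from lists of 66 distinct genes, of which 51 were measured and 42 passed the filter. For the genotype effect, 2 of the 42 were called higher and 1 lower in CD34+ITGA6+ cells, where 1.91% of all genes tested were called, with a median difference of -0.04 (-0.03 over all genes). In ITGA6+ cells 1 was higher and 1 lower, where 5.3% of all genes were called, with a median of -0.04 (-0.03 over all genes). Between populations 2 were higher and 5 lower in CD34+ITGA6+ cells of K14ΔNLef1 mice, where 12.9% of all genes were called, with a median of 0.0013 (-0.15 over all genes). In WT mice 2 were higher and 6 lower, where 17.2% of all genes were called, with a median of -0.15 (-0.17 over all genes). The replicate block within genotype gave 10 calls there, Hdac2 and Vgll4 being added. Over all 5712 genes tested it also gave more calls, 1103 against 982 without the block. For the difference of genotype effects, 1 of 42 was called, where 1.54% of all genes were.

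Among the Groucho/TLE co-repressors, which bind TCF/LEF proteins in place of β-catenin, 4 of 6 were tested and Tle3 was called. It was lower in CD34+ITGA6+ cells, at 7.38 ± 0.18 against 8.14 ± 0.35 in ITGA6+ cells of K14ΔNLef1 mice (-0.75 ± 0.21, adjusted p = 0.0313) and at 7.59 ± 0.27 against 8.69 ± 0.14 in WT mice (-1.10 ± 0.21, adjusted p = 0.00220). The first call was lost without K14ΔNLef1 CD34+ITGA6+ replicate 1 or 3 or K14ΔNLef1 ITGA6+ replicate 2 or 3 (highest adjusted p = 0.134, difference -0.57). In the genotype comparisons 0 of the 4 were called.

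Of 12 tested genes for β-catenin and its nuclear cofactors, Ctnnb1, the β-catenin gene, was 0.79 ± 0.18 higher in K14ΔNLef1 than in WT ITGA6+ cells (10.76 ± 0.18 and 9.97 ± 0.10, adjusted p = 0.0202). It was lower by -0.65 ± 0.18 in the CD34+ITGA6+ population of K14ΔNLef1 mice (adjusted p = 0.0305). The first call was lost without any WT ITGA6+ array or without K14ΔNLef1 ITGA6+ replicate 1 or 2 (highest adjusted p = 0.0929), and the second without any K14ΔNLef1 CD34+ITGA6+ array or K14ΔNLef1 ITGA6+ replicate 1 or 2 (highest adjusted p = 0.118). Jup (plakoglobin, a relative of β-catenin in cell junctions) was lower in the CD34+ITGA6+ population of WT mice by -0.82 ± 0.25 (adjusted p = 0.0333), and this call was lost without WT CD34+ITGA6+ replicate 2 or WT ITGA6+ replicate 2 or 3 (highest adjusted p = 0.147).

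Of 6 tested genes for other regulators of TCF/LEF proteins, Satb1 and Hipk2 were called. Satb1, a chromatin organiser that can bind β-catenin, was lower in K14ΔNLef1 cells of both populations. It averaged 6.45 ± 0.13 in K14ΔNLef1 and 7.83 ± 0.29 in WT CD34+ITGA6+ cells (-1.38 ± 0.24, adjusted p = 0.00577), and 7.31 ± 0.51 in K14ΔNLef1 and 9.81 ± 0.10 in WT ITGA6+ cells (-2.51 ± 0.24, adjusted p = 1.34e-05). It was also lower in the CD34+ITGA6+ population, by -0.86 ± 0.24 in K14ΔNLef1 (adjusted p = 0.0288) and by -1.98 ± 0.24 in WT mice (adjusted p = 4.35e-05). The first of these calls was lost without K14ΔNLef1 CD34+ITGA6+ replicate 1 or 2 or K14ΔNLef1 ITGA6+ replicate 1 or 2 (highest adjusted p = 0.137). Both K14ΔNLef1 means of Satb1 lay below the array medians of 7.35 to 7.63. Its genotype differences and its population call in K14ΔNLef1 mice thus rest on values near background. Hipk2, a kinase that can phosphorylate TCF/LEF proteins, was lower in the CD34+ITGA6+ population by -1.30 ± 0.20 in K14ΔNLef1 (adjusted p = 5.78e-04) and by -0.84 ± 0.20 in WT mice (adjusted p = 0.00906).

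Of 9 tested genes of the β-catenin destruction complex and Dishevelled, only Axin2, at once a scaffold of that complex and a widely used Wnt target, was called. It averaged 8.80 ± 0.18 in K14ΔNLef1 and 7.86 ± 0.14 in WT CD34+ITGA6+ cells (0.95 ± 0.18, adjusted p = 0.0134), and 8.39 ± 0.14 in K14ΔNLef1 and 9.04 ± 0.25 in WT ITGA6+ cells (-0.65 ± 0.18, adjusted p = 0.0572). Its genotype effects differed by 1.60 ± 0.26 between the populations (adjusted p = 0.00546). Between populations it was lower in the CD34+ITGA6+ population of WT mice by -1.19 ± 0.18 (adjusted p = 3.72e-04). The first call was lost without WT CD34+ITGA6+ replicate 2 or K14ΔNLef1 CD34+ITGA6+ replicate 2 or 3 (highest adjusted p = 0.0631).

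Of 8 tested Wnt and TCF/LEF target genes, which include Axin2, Cd44 (a hyaluronan receptor) was 1.11 ± 0.17 higher in K14ΔNLef1 than in WT CD34+ITGA6+ cells (adjusted p = 0.00184). Lgr5, a receptor of R-spondins and a bulge marker, was higher in the CD34+ITGA6+ population by 4.31 ± 0.31 in K14ΔNLef1 and 3.86 ± 0.31 in WT mice (adjusted p = 9.09e-07 and 1.58e-06). Tnfrsf19, a receptor of the tumour necrosis factor family, was lower by -2.62 ± 0.28 and -2.80 ± 0.28 in the same comparisons (adjusted p = 2.52e-05 and 8.70e-06). Targets thus moved in both directions between the populations.

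At Vgll4, Runx1 and Gata6 the study displays binding of ΔNLef1, so these are not an independent choice. In the genotype comparisons 0 of the 3 were called, which does not show that their expression was unchanged. For Gata6 the study also reports more RNA by RT-qPCR in cultured K14ΔNLef1 keratinocytes, less after Lef1 knockdown, and more positive cells by staining. The arrays here measured sorted cells. Runx1, a transcription factor of the bulge, was higher in the CD34+ITGA6+ population by 1.37 ± 0.22 in K14ΔNLef1 and 1.12 ± 0.22 in WT mice (adjusted p = 7.55e-04 and 0.00250). Vgll4, a cofactor of TEAD transcription factors, was 0.77 ± 0.26 higher in the CD34+ITGA6+ population of WT mice (adjusted p = 0.0578), and passed the threshold with the replicate block within genotype (adjusted p = 0.0193). None of the calls named for listed genes changed direction with median centring or quantile normalization.

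**Figure D4:**
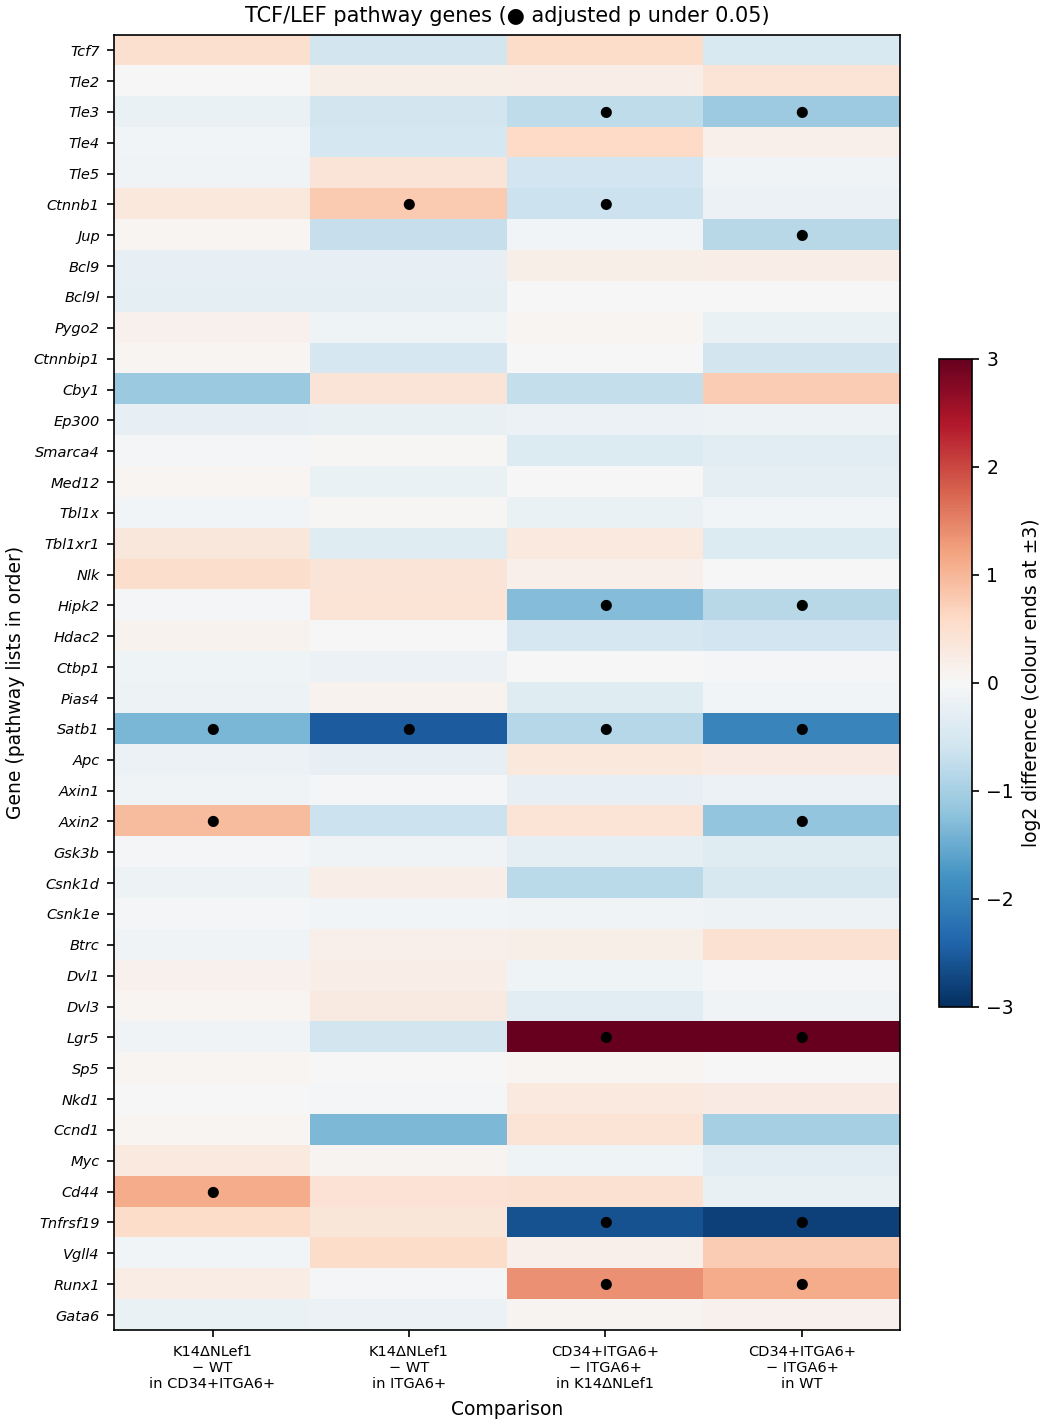
Log2 difference of the 42 tested pathway genes (rows, in list order from family members and co-repressors to target genes and bound loci) in 4 comparisons (columns), red for higher and blue for lower; dots mark an adjusted p under 0.05. Dots are sparse in the genotype columns (3 and 2) and more frequent in the population columns (7 and 8).

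Genes whose medians ran most like those of the members over the 12 arrays were picked by Pearson's r among 5711 other tested genes, as a description in which the arrays of a group are alike. For Lef1 they were Dnah8 (an axonemal dynein, r = 0.955), Pgbd1 (0.942), Masp1 (a complement protease, 0.916), Gsta4 (a glutathione transferase, 0.916) and Fn1 (fibronectin, 0.910). Each of the 5 had a higher K14ΔNLef1 mean in both populations, and Gsta4 averaged 9.44 in K14ΔNLef1 and 5.83 in WT CD34+ITGA6+ cells. For Tcf7l2 they were Polr3gl (an RNA polymerase III subunit, 0.907), Papln (a matrix protein, 0.889), Zfhx3 (a homeobox factor, 0.888), Palm (0.884) and Cul1 (the scaffold of a ubiquitin ligase family, 0.881). Palm followed the population, with means of 7.24 in CD34+ITGA6+ and 6.46 in ITGA6+ cells of K14ΔNLef1 mice and 7.63 and 6.46 in those of WT mice.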

How the data were processed

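The deposited table holds 1 intensity per probe set and array on a linear scale, which the authors normalised with RMA (RMA, Affymetrix Power Tools and build mm9 are given without versions in the submitters' notes). RNA was amplified before labelling, so differences need not stay in proportion. Log2 was taken here. Of the probe sets, 109796 had 1 gene symbol, 836 several and 3698 none. Genes took the median of their probe sets. Tests covered the 65221 probe sets and 5712 of 11287 genes that exceeded the array's own median on 3 or more of 12 arrays, and 26 of the 27 member probe sets passed. limma 3.58.1 (R 4.3.3) fitted 1 mean per group to all arrays (8 residual degrees of freedom). Contrasts were two-sided, with Benjamini-Hochberg adjustment over all features tested and a threshold of 0.05. Unequal movement of the probe sets of a gene was tested with the F test of diffSplice (7942 genes). All tests were tried on simulated data, in which the usage test gave more false calls than its threshold allows. Precision is limited by the number of arrays.

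The members and gene lists were chosen with earlier results of these data known. Genes were named by a rule: every member probe set, family members, up to 4 called genes per list, Krt14, Krt5, markers, and the 5 most alike genes of each member. Alternatives were other normalizations, filters, gene summaries, variance settings, array weights, a replicate block, and leaving out each array. Median polish and a replicate block within genotype were added after seeing the data. Replicate numbers paired the WT populations, since deviations from the group means correlated over 0.1 in 3 of 3 pairs (0.11 to 0.23). They did so in 2 of 3 K14ΔNLef1 pairs (0.069 to 0.13). Of 12 pairs between genotypes, only replicate 2 of the CD34+ITGA6+ groups was over 0.1 (0.107). Promoter windows are from RefSeq.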

Additional observations from a re-analysis of the deposited data

Results flagged for a closer look

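The genotype effect on Axin2 differed between the populations by a test of the difference itself, at 1.60 ± 0.26 (CD34+ITGA6+ minus ITGA6+, limma adjusted p = 0.00546). Axin2 was higher in K14ΔNLef1 than in WT CD34+ITGA6+ cells (8.80 and 7.86) and lower in K14ΔNLef1 than in WT ITGA6+ cells (8.39 and 9.04). The call was kept without any 1 of the 12 arrays, the highest adjusted p being 0.0195. No probe set or gene median of Tcf7l2 met this criterion, and groups of 3 arrays are too small for a check of single outlying arrays.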

How the results depend on the processing

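Of 570 values under 25 alternative settings, 510 kept their direction and side of the threshold or moved by less than the limit set for them, and 48 values moved, 6 passed the threshold, 2 lost it and 4 changed sign. The Lef1 genotype difference was 4.57 in CD34+ITGA6+ and 5.32 in ITGA6+ cells with the mean over probe sets, was 5.76 in CD34+ITGA6+ cells with median polish with quantile normalization, and ran from 5.86 to 6.39 without single arrays in CD34+ITGA6+ cells. Its difference between populations was -0.75 with the mean over probe sets, -0.86 with median polish and -0.90 with median polish with quantile normalization, and ran from -0.58 to -0.052 without single arrays. The Lef1 population difference in K14ΔNLef1 mice was 0.012 with median centring. In WT mice, where Lef1 lay below the array medians, it was 0.69 with the mean over probe sets, 0.81 with median polish and 0.88 with quantile normalization added, and ran from -0.015 to 0.51 without single arrays. For the Tcf7l2 gene, the genotype effect in ITGA6+ cells ran from -0.37 to 0.38 and the population difference in WT mice from 1.21 to 1.61 without single arrays. The population difference in K14ΔNLef1 mice was 0.69 with the mean over probe sets and 0.80 (adjusted p = 0.00862) with median polish with quantile normalization, and ran from 0.46 to 1.21 without single arrays. The cause of these changes was not tested.

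Tcf7l2 probe sets called between populations of K14ΔNLef1 mice numbered 3 with median centring or quantile normalization, 2 with trend and robust moderation, 0 with no filter or only the arrays compared, and 0 to 2 without single arrays. In WT mice 3 were called with no filter or only the arrays compared and 2 to 7 without single arrays. Pathway genes called for the genotype effect in ITGA6+ cells numbered 4 with the mean over probe sets, with passing probe sets only, with array weights or with median polish with quantile normalization, and 1 to 3 without single arrays. For its difference between populations they numbered 3 with the mean over probe sets, 2 with median polish, 3 with quantile normalization added, and 1 to 2 without single arrays. In the population difference of K14ΔNLef1 mice 4 to 7 were called without single arrays. All these counts are given without the share of all probe sets or genes called in the same setting.

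Replicate numbers are shared across groups. Of the 6 pairs of arrays with the same number within a genotype, 6 correlated best with their own number, against 1 of 12 pairs between genotypes. With a replicate block, either over all 12 arrays or within genotype, 0 Tcf7l2 probe sets were called in K14ΔNLef1 and 3 in WT mice, and neither block moved another count or gene value above beyond the limits used. The block within genotype called 3508 of all 65221 probe sets tested in K14ΔNLef1 and 5876 in WT mice. With it the Tcf7l2 gene kept its WT call (adjusted p = 0.0311). The block within genotype cannot give genotype effects, and fits of only the arrays compared cannot give the difference between them.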

Other observations

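Among the markers of other cell types, Mitf, a transcription factor of melanocytes, was higher in the CD34+ITGA6+ population by 2.70 ± 0.23 in K14ΔNLef1 and 2.57 ± 0.23 in WT mice (limma adjusted p = 2.45e-06 and 2.84e-06), while the other 5 measured melanocyte markers had means below the array medians in every group. Thy1, a surface protein of T cells and other cells, was lower in K14ΔNLef1 than in WT ITGA6+ cells by -1.26 ± 0.24 (7.08 and 8.34, adjusted p = 0.00604). The summed T cell markers ran from 552 to 769 in K14ΔNLef1 ITGA6+ arrays and from 694 to 796 in WT ITGA6+ arrays.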
